A study of Homo sapiens with 6 samples.

Results

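SMARCA4 occupancy was examined at 10 genes for subunits of the Polycomb repressive complexes. EZH1, EZH2, EED, SUZ12 and JARID2 encode subunits of PRC2, and BMI1, RING1, RNF2, CBX2 and CBX8 encode subunits of PRC1. They were taken by name, and all 10 were found among the 20098 protein-coding genes annotated on chromosomes 1 to 22 and X. Peaks were collected in a window made of each annotated gene and 5 kb of flank on either side, and 33 of the 28265 peaks in the deposited list fell in these windows. The positions are those of the human genome build hg19.

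The cells were K562, an established human leukaemia cell line, with no treatment named in the labels before crosslinking. Chromatin was fixed with 2 mM disuccinimidyl glutarate for 30 min and with 1% formaldehyde for 10 min, and was sheared to 150 to 400 bp. The 3 SMARCA4 ChIP libraries and 3 input libraries came from this 1 condition. The list holds the regions called in at least 2 of the 3 ChIP replicates, as a chromosome, a start and an end, with no height and no value for a single library, so neither the spread between replicates nor the reads behind a single peak can be read from it. The series record calls these replicates technical and the paper calls them biological, and their independence was not tested.

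Polycomb proteins keep developmental genes silent by marking their chromatin. PRC2 methylates histone H3 at lysine 27 through EZH2 or its relative EZH1, held together by EED and SUZ12, and PRC1 ubiquitinates histone H2A through RING1 or RNF2. SMARCA4 is an ATPase of the SWI/SNF remodelling complexes, which slide or evict nucleosomes and are known from fly genetics as opponents of Polycomb silencing. K562 cells carry the erythroid and megakaryocytic transcription factor GATA1, and G-quadruplexes (G4s) are folded structures that guanine-rich strands can form, often at active promoters.

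The sequences below carry the pattern found at the gene starts. The G4 motif searched for had 4 guanine runs, each 3 bases or longer, separated by loops that were 1 to 7 bases in length, and both strands were read. It had to lie wholly inside a peak. For each of the 9 members with such a motif in a promoter peak, the motif closest to the canonical transcription start site (TSS, the start of the transcript that the annotation marks as canonical) is given 5′ to 3′ on the strand that carries it, with the runs of guanine in capitals.
EZH2, chr7:148581533-148581551, plus strand: GGGctcgtGGGcGGGcGGG
EZH1, chr17:40896988-40897008, minus strand: GGGccGGGcggtGGGGccGGG
EED, chr11:85955994-85956014, plus strand: GGGaGGGcggcGGGaaaaGGG
SUZ12, chr17:30263940-30263967, plus strand: GGGGGaatccgcGGGccaacGGGctGGG
JARID2, chr6:15245469-15245494, plus strand: GGGGaGGGGGGccGGGGcccGGGGGG
RING1, chr6:33176442-33176468, plus strand: GGGGGcGGGagcGGGGGcggagaGGGG
BMI1, chr10:22609971-22609997, plus strand: GGGGGGGcggcGGGGGGaGGGGGcGGG
CBX2, chr17:77751869-77751890, plus strand: GGGGGcGGGcggcGGGccGGGG
CBX8, chr17:77770919-77770939, minus strand: GGGaGGGGGGccgcGGGaGGG

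Of the 33 peaks, 14 lay outside the promoters of all coding genes, and 9 of the 14 had a GATA or an AP-1 motif in the 200 bp around the centre, against 67.8% of all such peaks in the list. The windows below are shown as examples, being the 200 bp around the centres of 4 of the 6 peaks among these 14 that held GATA motifs at 2 or more places or a GATA and an AP-1 motif together, on the strand of the gene. GATA motifs at 2 or more places were found at 3 of the 14, against 26.7% of all peaks outside coding promoters. A GATA and an AP-1 motif together were found at 3 of the 14, against 10.3%. Capitals mark GATA motifs (the letters GATA after A or T and before A or G, or the reverse complement) and, in the first and last JARID2 windows, AP-1 motifs (TGACTCA or TGAGTCA).
EZH2, chr7:148544995-148545194, minus strand: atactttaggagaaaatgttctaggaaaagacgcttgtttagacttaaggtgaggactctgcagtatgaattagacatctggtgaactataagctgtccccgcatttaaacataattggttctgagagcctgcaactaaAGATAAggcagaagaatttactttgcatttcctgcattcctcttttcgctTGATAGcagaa
JARID2, chr6:15299932-15300131, plus strand: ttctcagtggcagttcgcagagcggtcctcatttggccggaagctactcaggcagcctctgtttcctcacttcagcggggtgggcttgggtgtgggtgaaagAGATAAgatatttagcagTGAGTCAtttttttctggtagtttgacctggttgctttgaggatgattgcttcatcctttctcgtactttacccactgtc
JARID2, chr6:15482247-15482446, plus strand: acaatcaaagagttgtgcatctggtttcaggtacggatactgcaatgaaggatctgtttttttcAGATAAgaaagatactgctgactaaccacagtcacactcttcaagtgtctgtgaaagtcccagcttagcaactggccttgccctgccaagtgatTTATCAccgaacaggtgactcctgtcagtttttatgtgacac
JARID2, chr6:15509930-15510129, plus strand: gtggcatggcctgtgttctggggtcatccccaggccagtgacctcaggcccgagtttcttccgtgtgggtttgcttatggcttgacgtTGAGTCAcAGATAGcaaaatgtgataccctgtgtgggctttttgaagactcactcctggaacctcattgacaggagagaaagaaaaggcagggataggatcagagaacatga

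Every one of the 10 members had a promoter peak, that is, a peak sharing at least 1 bp with the 1 kb on either side of any annotated TSS of the gene (95% Wilson interval 72.2 to 100%). Over all protein-coding genes the share was 48.2% (9689 of 20098, interval 47.5 to 48.9%). It was 64.6% for genes with a CpG-rich start and 25.9% for genes with a CpG-poor start, where CpG-rich means a GC content of at least 50% and an observed-to-expected CpG ratio of at least 0.6 in the 500 bp on either side of the start of the gene record. By this measure 9 of the 10 members were CpG-rich, beside 11587 of the 20098 coding genes. The exception was EED, whose record begins 43.5 kb upstream of its canonical TSS, and around the canonical TSS all 10 passed both cuts. In all 10 members the canonical TSS itself lay inside a peak, against 34.9% of the 19819 coding genes with a canonical TSS marked.

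The 10 peaks over these TSSs were 426 to 2019 bp wide, had a GC content of 61.0 to 75.8%, and 9 of them reached further upstream than downstream of the TSS. Among all canonical TSSs inside a peak, the peak reached further upstream in 63.4%. With 6 further peaks that lay within 1 kb of an annotated TSS but did not cover the canonical one, the members had 16 promoter peaks. Their median width was 707 bp (95% interval from the ranks of the widths 426 to 1130 bp), against 414 bp over the 12629 promoter peaks of coding genes, whose quartiles were 246 and 672 bp. Of the 16, 13 were wider than that median and 4 lay above its percentile of 90. Width here is the stretch shared by at least 2 replicates, the only measure of size in the list. The interval takes the 16 peaks as independent, although JARID2 and EZH1 gave 3 each, and the difference in width was not tested.

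**Figure D1:**
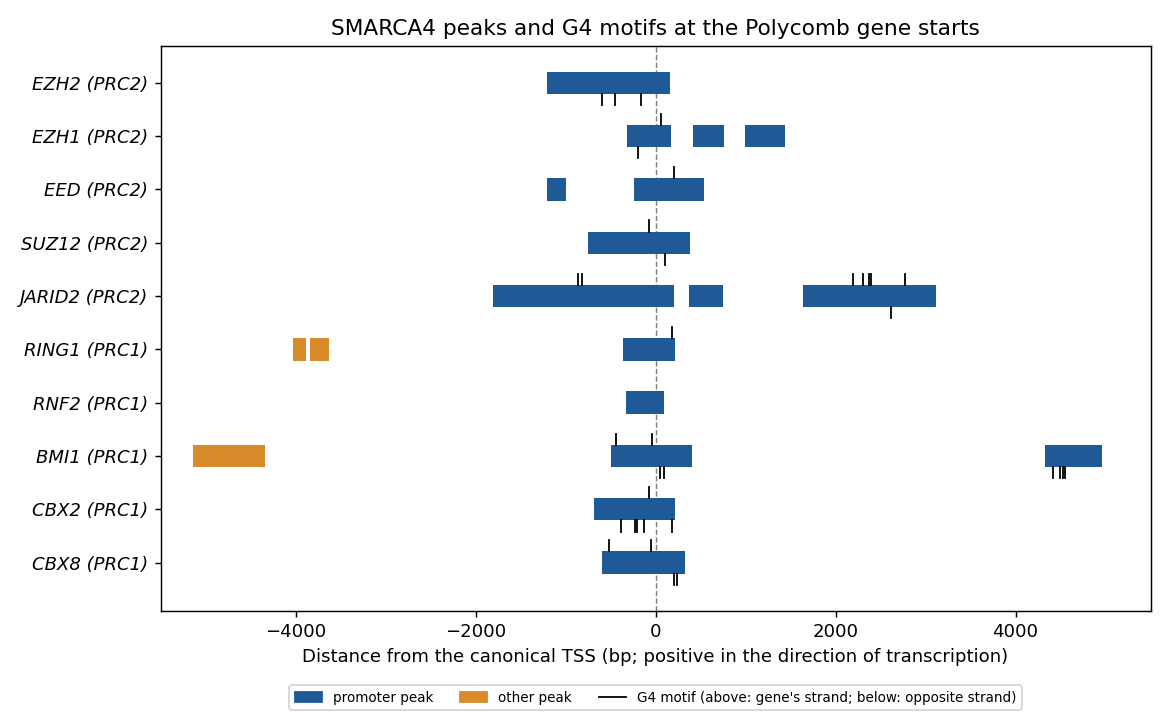
Peaks (boxes) and G4 motifs inside them (ticks) within 5 kb of the canonical TSS of each of the 10 genes, with the distance in bp and positive values in the direction of transcription. A peak spans the dashed line of the TSS in all 10 genes, and ticks above and below a box are motifs on the strand of the gene and on the opposite strand.

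G4 motifs lay in 11 of the 16 promoter peaks, against 40.1% of the promoter peaks of coding genes (5064 of 12629). Of the 10 peaks over a canonical TSS, 9 held a motif, against 52.6% of the canonical TSSs inside a peak over all coding genes. By gene, 9 of the 10 members had a promoter peak with a motif. Over all 20098 coding genes 5071 had one (25.2%), but only 9689 of the 20098 had any promoter peak. The 11 peaks held 35 motifs of 18 to 28 bases, 16 on the strand of the gene and 19 on the opposite strand, and 21 of the 35 were centred within 500 bp of the canonical TSS.

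Both width and base composition went with the presence of a motif. Among promoter peaks of coding genes the share with a motif was 14.0% below 200 bp, 28.8% at 200 to 399 bp and 42.5% at 400 to 599 bp. It was 55.3% at 600 to 899 bp, 71.1% at 900 to 1299 bp and 82% from 1300 bp on. The members followed the same order: 0 of 3 peaks of 200 to 399 bp, 2 of 4 peaks of 400 to 599 bp, and all 9 wider peaks held a motif. By composition, the 3 member promoter peaks under 45% GC held none, where 2.15% of such coding promoter peaks did. The 1 member peak from 55 to below 60% GC held none, where 26.4% did. All 3 from 60 to below 65% and all 3 from 65 to below 70% held at least 1, where 39.6 and 50.6% did. At or above 70% GC 5 of the 6 held at least 1, where 63.1% did. The part of width and composition in the higher share of the members was not tested.

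**Figure D2:**
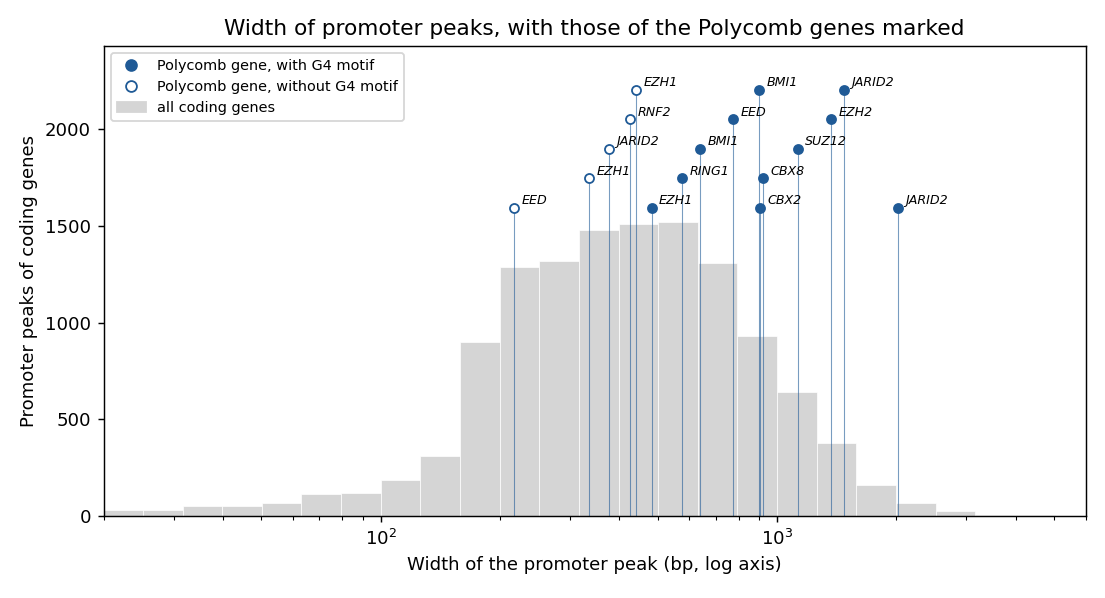
Widths of the 12629 promoter peaks of coding genes (grey bars, counts per bin on a log axis of bp) and of the 16 promoter peaks of the members (circles, filled where the peak holds a G4 motif). The circles run from 217 bp at EED to 2019 bp at JARID2, and the 5 open circles lie at or below 441 bp.

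In PRC2, the catalytic subunit gene EZH2 had a promoter peak of 1369 bp (chr7:148581218-148582586), and 96.1% of coding promoter peaks were no wider. It covered 1203 bp upstream and 166 bp from the TSS on, had 67.6% GC and held 3 G4 motifs, all on the strand opposite to the gene. Its other 2 peaks lay in intron 1 and held no G4 motif. The further of them, 36.3 kb downstream of the TSS at chr7:148544907-148545283, was 377 bp wide with 39.0% GC and had GATA motifs at 2 places.

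EZH1, the second PRC2 methyltransferase gene, had 3 promoter peaks in a row. The peak over the TSS (chr17:40896887-40897369) was 483 bp wide with 67.1% GC and 2 G4 motifs, 1 on each strand. The next, at chr17:40896300-40896635, was centred 590 bp into the gene with 56.2% GC, and the last, at chr17:40895625-40896065, was centred 1213 bp into the gene with 44.9% GC. These intron 1 peaks were 336 and 441 bp wide and held no G4 motif. GC content fell from peak to peak along the gene, and the last had GATA motifs at 2 places. The remaining peak of 929 bp (chr17:40851018-40851946) lay past the 3′ end of EZH1, inside the neighbouring gene CNTNAP1, with 51.0% GC and 2 G4 motifs.

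EED encodes the subunit that binds trimethylated H3K27. Its canonical TSS was covered by a 774 bp peak (chr11:85955556-85956329) of 61.0% GC with 1 G4 motif. An unnamed gene not annotated as protein-coding also had a start within 1 kb of this peak. The 774 bp peak was the only TSS peak of the 10 that reached further downstream (535 bp) than upstream (239 bp). A narrower promoter peak of 217 bp (chr11:85954587-85954803), centred 1100 bp upstream, had 35.9% GC, no G4 motif and GATA motifs at 3 places. The remaining 3 peaks lay in introns of longer transcripts. The furthest 2, of 188 bp (chr11:85913653-85913840) and 57 bp (chr11:85914039-85914095), lay 42048 and 41728 bp upstream, near the start of the record.

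SUZ12, the scaffold subunit gene, had a single peak in its 74.03 kb window. This promoter peak (chr17:30263278-30264407) was 1130 bp wide with 64.1% GC and held 2 G4 motifs, 72 bp upstream and 107 bp downstream of the TSS, on opposite strands. It was also the member peak whose reads could least be placed. Of 43 pieces of 75 bases cut from it every 25 bases, 34 (79.1%) mapped to 1 place in hg19 with a mapping quality of at least 10, against 694 of 707 (98.2%) over all 33 member peaks. A partial copy, the pseudogene SUZ12P1 (chr17:29058904-29103420), had 3 peaks in its own window, and the 486 bp peak at its start (chr17:29058523-29059008) had 12 of 17 pieces (70.6%) with 1 place. How many reads were shared between these places was not tested.

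JARID2, which encodes an accessory subunit that binds DNA and helps to bring PRC2 to chromatin, had the most peaks of the 10, with 10 in its 286 kb window. Only 0.647% of coding genes had as many, and the 524 coding genes of like length (within a factor of 1.5) with a promoter peak had a median of 3, with quartiles of 2 and 6. Its widest promoter peak (chr6:15244490-15246508) measured 2019 bp, 1810 bp of it upstream of the TSS, with 63.0% GC and 2 G4 motifs. The divergent non-coding RNA JARID2-DT had a start within 1 kb of this peak. A 377 bp peak (chr6:15246675-15247051) centred 563 bp downstream had 38.5% GC, a GATA motif and no G4 motif. The next promoter peak (chr6:15247943-15249414) was 1472 bp wide, centred 2379 bp downstream, and covered another annotated JARID2 TSS. The antisense RNA JARID2-AS1 had a start within 1 kb of it. This 1472 bp peak had 67.0% GC and 6 G4 motifs, 5 of them on the strand of JARID2.

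The other 7 JARID2 peaks were intronic and spread over the length of the gene. Those at chr6:15266661-15267251, chr6:15289625-15290091 and chr6:15299782-15300281 lay in intron 1, centred 20656, 43558 and 53732 bp from the TSS, and were 591, 467 and 500 bp wide. The peaks at chr6:15400313-15400493 in intron 2, chr6:15434549-15434779 in intron 3, chr6:15482090-15482603 in intron 5 and chr6:15509928-15510132 in intron 12 were 181, 231, 514 and 205 bp wide. Their GC content ran from 42.0% at the intron 5 peak to 53.0% at the intron 2 peak. GATA motifs were found in 4 of the 7, at the third intron 1 peak and the peaks of introns 3, 5 and 12, and AP-1 motifs in 3, of which the third intron 1 peak and the intron 12 peak also had a GATA motif, against 59.5 and 18.6% of peaks outside coding promoters. In the intron 12 window printed above, TGAGTCA and AGATAG stand 1 base apart. The third intron 1 peak also held the only G4 motif of these 7.

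**Figure D3:**
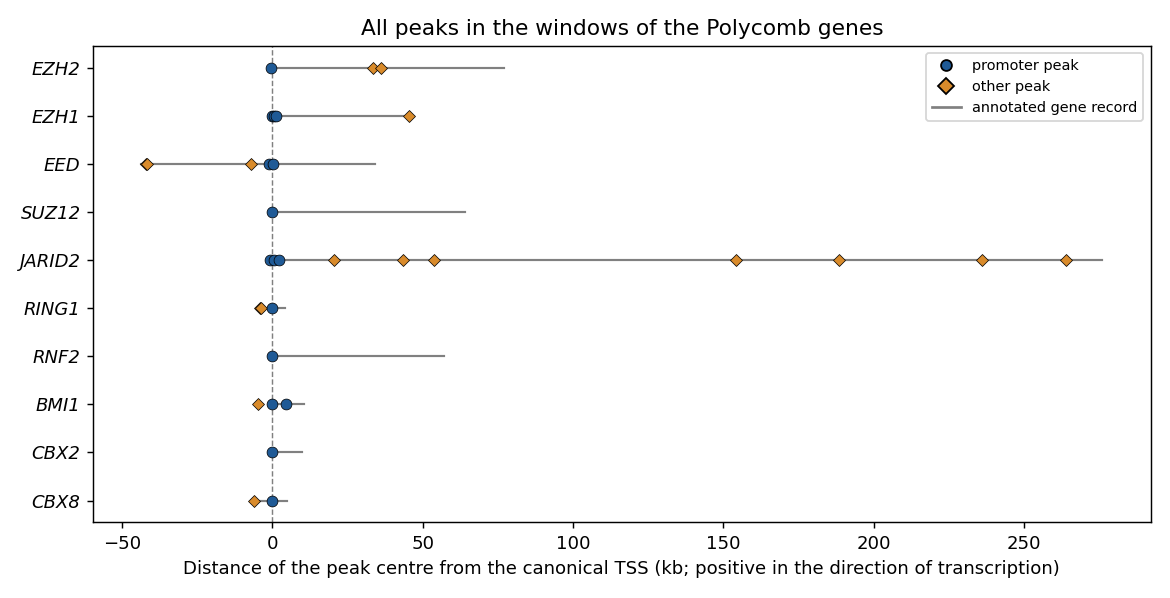
All 33 peaks in the windows of the 10 genes, by the distance of the peak centre from the canonical TSS in kb, with promoter peaks as circles, other peaks as diamonds and the annotated gene as a grey line. JARID2 carries 7 of the 17 non-promoter peaks, out to 263730 bp from its TSS, and SUZ12, RNF2 and CBX2 carry none.

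In PRC1, the RING-type ubiquitin ligase genes RING1 and RNF2 had narrower peaks over their TSSs than the other 3 members of that complex. The RING1 peak (chr6:33175919-33176495) was 577 bp wide with 74.4% GC and 1 G4 motif, 178 bp downstream of the TSS. An unnamed gene not annotated as protein-coding and the microRNA gene MIR219-1 also had a start within 1 kb of this peak. A pair of small peaks 152 bp (chr6:33172246-33172397) and 214 bp (chr6:33172435-33172648) wide lay 3955 and 3735 bp upstream, at the start of the neighbouring gene HSD17B8.

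RNF2, which encodes RING1B, was the exception to the G4 pattern. Its only peak, at chr1:185014363-185014788, was 426 bp wide, covered the TSS and had 74.6% GC, yet held no G4 motif, also with loops of up to 12 bases or with motifs that only touched the peak. The nearest motif was centred 317 bp downstream of the TSS, where the peak ended 99 bp past it. No other peak lay within 58.1 kb upstream or 49.3 kb downstream of the RNF2 window. The 200 bp around the centre of the peak, chosen for printing after its values were seen, held 2 GC boxes (GGGCGG, in capitals as the reverse complement), letters that can also be part of a G4 motif.
RNF2, chr1:185014476-185014675, plus strand: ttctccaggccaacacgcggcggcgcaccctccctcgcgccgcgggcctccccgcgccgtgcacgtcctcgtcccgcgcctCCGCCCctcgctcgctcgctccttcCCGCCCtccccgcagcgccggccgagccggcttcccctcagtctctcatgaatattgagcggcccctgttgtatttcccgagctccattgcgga

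BMI1 encodes the PCGF subunit that partners the ligase in canonical PRC1. Its start was covered by a 901 bp peak (chr10:22609533-22610433) of 75.8% GC with 4 G4 motifs, 2 on each strand. A second promoter peak of 640 bp (chr10:22614352-22614991), centred 4644 bp downstream in intron 1 at alternative TSSs, had 71.7% GC and also 4 motifs, here all on the strand opposite to the gene. The third peak in the window, 807 bp wide (chr10:22604887-22605693), had 70.4% GC without any G4 motif. It lay within 1 kb of a start of the upstream neighbour COMMD3 and of the read-through transcript COMMD3-BMI1.

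CBX2 and CBX8 encode chromodomain subunits that read methylated histone H3, and they lie near each other on chromosome 17. The CBX2 peak (chr17:77751264-77752168), 905 bp wide with 75.1% GC, held 6 G4 motifs, 5 of them on the strand opposite to the gene, and was the only peak in its window. The CBX8 peak (chr17:77770544-77771467), 18.4 kb further on, was 924 bp wide with 73.2% GC and 4 motifs, 2 on each strand. It covered the canonical TSS, which lies 4.61 kb inside the annotated record. A 409 bp peak (chr17:77776841-77777249) centred 6169 bp upstream of that TSS had 65.5% GC, a GATA motif and no G4 motif.

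**Figure D4:**
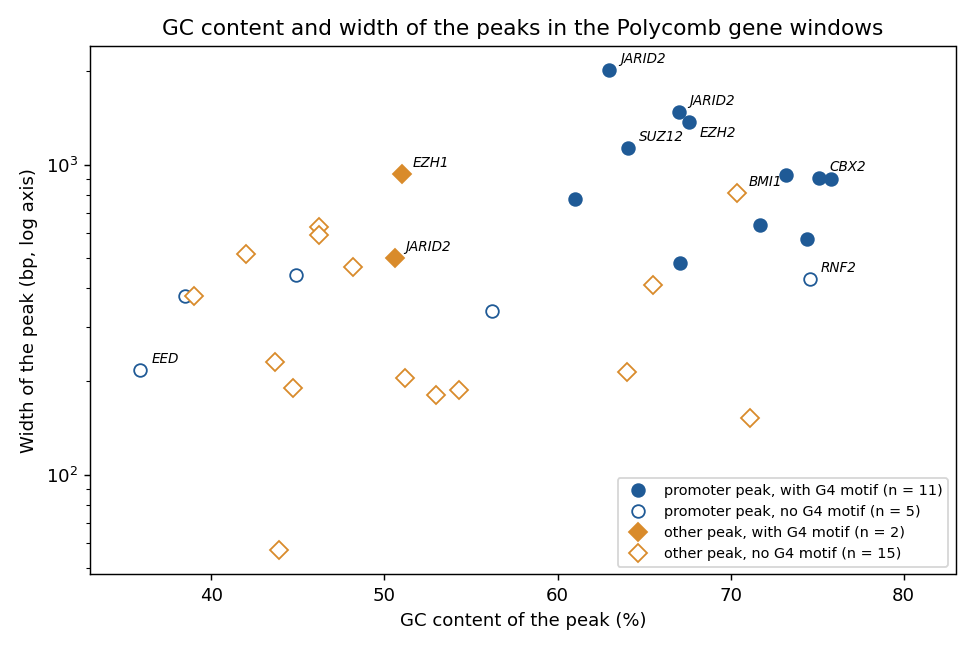
GC content in percent and width in bp (log axis) of the 33 peaks in the windows of the members, as circles for promoter peaks and diamonds for other peaks, filled where the peak holds a G4 motif. The 11 filled circles all lie at or above 61.0% GC and 483 bp, and 2 of the 17 diamonds are filled.

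The 17 non-promoter peaks were spread over 7 of the 10 members. Of all coding genes, of any length and with or without a promoter peak, 36.8% had such a peak in their window. Counting all peaks, coding genes of like length with a promoter peak had a median of 2 for each member but JARID2. EZH2, EZH1, EED, RING1 and BMI1 lay above this median, CBX8 at it, and SUZ12, RNF2 and CBX2 below it. Of the 17, 9 lay in introns of the canonical transcript, 3 in introns of other transcripts, 4 in the upstream flank and 1 in the downstream flank. Their median width was 377 bp and their median GC content 50.6%, against 67.0% for the 16 promoter peaks. G4 motifs were found in 2 of them, the peak past the end of EZH1 and the third intron 1 peak of JARID2. At 3 of the 17 the start of another coding gene was within 1 kb. Of the 14 without such a start, 2 held a G4 motif, against 9.83% of the 15636 peaks outside coding promoters.

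Short motifs were counted on both strands in the 200 bp around each peak centre, which reaches past the ends of the narrowest peaks. A GATA motif was present at 8 of the 14 member peaks outside coding promoters and 3 of the 16 promoter peaks, against 40.2% of all peaks, 59.5% of peaks outside coding promoters and 16.3% of coding promoter peaks. AP-1 motifs were present at 4 of the 14 and 1 of the 16, against 18.6% of peaks outside coding promoters and 4.55% of coding promoter peaks. The GC box GGGCGG showed the reverse distribution, at 1 of the 14 and 11 of the 16, against 11.7% of peaks outside coding promoters and 52.9% of coding promoter peaks. E2F motifs (TTTCCCGC, TTTCGCGC, TTTGCCGC or TTTGGCGC) occurred at 3 promoter peaks, those over the starts of EZH1, EED and SUZ12, against 2.81% of coding promoter peaks. The NRF1 motif occurred at 1 promoter peak, over the start of EZH1, against 5.12%. CCAAT was found at 2 of the 14 and 4 of the 16, against 19.2% of all peaks, and CAGCTG at 4 and 1, against 14.1%. None of the 33 windows held CCGGAAGT, TGACGTCA or the CTCF motif, which were present at 1.98, 0.941 and 2.18% of all peaks.

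More than 1 promoter peak was found at 4 members, EZH1, EED, JARID2 and BMI1. Over all 20098 coding genes this held for 3511 (17.5%), but only 9689 of the 20098 had any promoter peak. The coding genes with a promoter peak had a median of 1, with quartiles of 1 and 2. In the 4 members the promoter peaks that did not cover the canonical TSS were of different kinds. The second BMI1 peak and the 1472 bp JARID2 peak covered other annotated TSSs, had 71.7 and 67.0% GC and held G4 motifs. The other 4, at EZH1, EED and JARID2, covered no TSS of their gene, had a GC content of 35.9 to 56.2% and held none.

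Of 37 further Polycomb genes, 33 had a promoter peak (89.2%, Wilson interval 75.3 to 95.7%). These were 8 of 9 PRC2 genes, 20 of 22 PRC1 genes and 5 of 6 genes of the deubiquitinase complex PR-DUB. The canonical TSS lay inside a peak in 23 of the 37, and 22 had a promoter peak with a G4 motif. Over coding genes with or without a promoter peak, the shares were 34.9 and 25.2%. Wide promoter peaks among the 37 were those of ASXL1 (1993 bp), PHF19 (1982 bp), LCOR (1382 bp) and RBBP4 (1132 bp). The 4 without one were EZHIP, L3MBTL2, AUTS2 and ASXL3. EZHIP, L3MBTL2 and ASXL3 had no peak in their windows, and AUTS2 had 2, the nearest 970.3 kb from its canonical TSS. The 1 kb around the canonical TSS had 71.9% GC at AUTS2 and 53.7% at L3MBTL2.

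Promoter peaks were also counted at the genes of chromatin regulators known to oppose Polycomb. All 28 SWI/SNF subunit genes (interval 87.9 to 100%) and all 13 trithorax and COMPASS genes (interval 77.2 to 100%) had a promoter peak. G4 motifs lay in 25 of 49 and in 10 of 19 of their promoter peaks, and in 30 of the 51 of the further Polycomb genes, beside 11 of 16 for the 10 members and 40.1% of the promoter peaks of coding genes. The median widths were 420, 768 and 404 bp in the same order, beside 707 bp. The intervals of these lists overlapped, and the lists were not tested against each other.

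**Figure D5:**
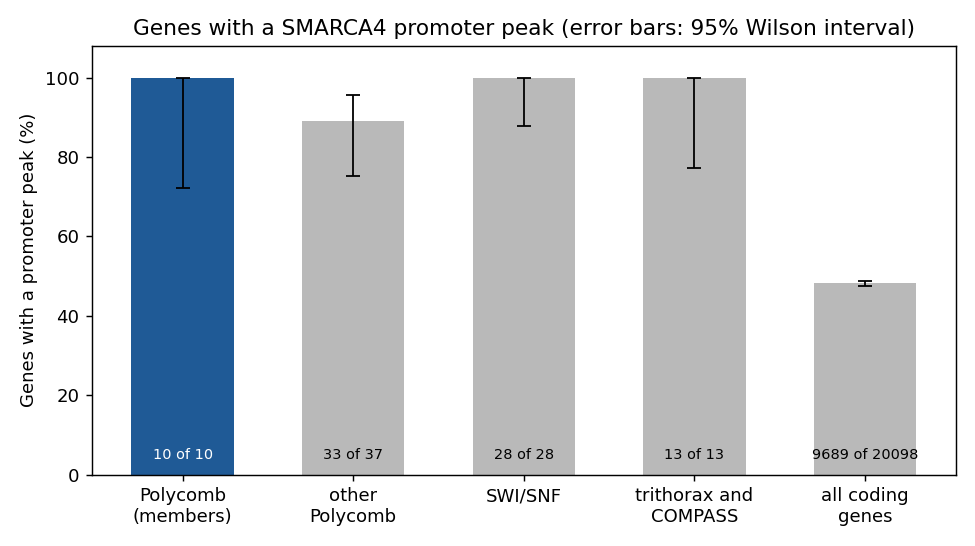
Percentage of genes with a promoter peak in the 10 members, the 37 further Polycomb genes, the 28 SWI/SNF genes, the 13 trithorax and COMPASS genes and the 20098 protein-coding genes, with 95% Wilson intervals as error bars. The bars stand at 100, 89.2, 100, 100 and 48.2%.

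Across the 10 windows, with the overlap of the CBX2 and CBX8 windows counted once, peaks covered 2.69% of the 724.67 kb and held 38 of the 151 G4 motifs found there. Within 1 kb of the canonical TSSs, 25 of 47 motifs lay inside a peak. With the start of the gene record as the only TSS, 8 members kept a promoter peak, since EED and CBX8 have their canonical TSSs far inside the record, and 7 member promoter peaks then held a G4 motif.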

How the data were processed

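SMARCA4 ChIP-seq of K562 cells comprised 3 ChIP and 3 input libraries. Per the labels and the methods of the study, the authors used cutadapt 1.16 for trimming, BWA 0.7.15 for alignment to hg19, Picard 2.14.0 and SAMtools 1.6 against duplicates, and MACS2 2.1.1 against input (q-value 0.05) to call peaks in each replicate, and kept regions of at least 2 of 3 replicates with bedtools 2.26.0. The deposited values are region starts and ends in bp.

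Peaks were intersected with GENCODE release 44 on hg19 (minimum overlap 1 bp) in Python 3.11.15 with numpy 2.4.6, scipy 1.17.1 and pysam 0.24.0. Overlap and motif searches were tested on simulated data. Pieces of peaks were mapped with minimap2 and its short-read preset. Motif shares have no test, and Wilson intervals cover counting error only.

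The members and lists were chosen with earlier results of these data known. By the rule for named genes, the 10 members were named with their peaks, the listed genes without a promoter peak, those of the 5 further Polycomb genes with the widest promoter peak that could be named, and genes whose TSS shares a member promoter peak. Neighbouring genes at other member peaks, the pseudogene SUZ12P1, BCOR and FOXK1 were named in addition to this rule. Some results under these rules are not reported here. Library depth was not used here.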

Additional observations from a re-analysis of the deposited data

How the results depend on the processing

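The counts of members, of member peaks and of listed genes stayed within 1.5 times their value under every alternative tried, apart from 2 counts. With only the gene record start as TSS, 7 member promoter peaks held a G4 motif instead of 11, the 4 lost being 1 each at EED, CBX8, JARID2 and BMI1, and with a 10 kb flank the non-promoter peaks rose from 17 to 28. Members with a promoter peak numbered 8 under the record start and 10 under the other 4 alternatives, and the median width ranged from 707 to 905 bp. The share of coding genes with a promoter peak was 45.3% with only peaks of at least 200 bp, 46.4% with only the 1 kb upstream, 46.1% with only TSSs of protein-coding transcripts and 42.4% with only the record start. In the same order, the share with a promoter peak holding a G4 motif was 24.3, 23.9, 24.3 and 21.3%. That share was 26.2% with peaks at most 500 bp apart merged, 33.2% with loops of up to 12 bases and 26.5% with motifs sharing at least 1 bp with the peak. No paired analysis was possible because the list carries no value for a single library, and for the same reason no replicate could be left out and no stricter peak threshold applied. Without heights or depth, a gene without a peak may hold SMARCA4 below the level called.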

Other observations

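Among the 37 further Polycomb genes, BCOR stood apart by the number of its peaks, a feature picked out after the values were seen. BCOR encodes a subunit of a variant PRC1 that holds a PCGF protein other than BMI1. Its window (gene record chrX:39909068-40036582, 127.5 kb) held 24 peaks, and 2 of the 20098 coding genes, BCOR included, had that many or more. The peaks were 1 to 1490 bp wide, 7 of them were promoter peaks and 13 held a G4 motif. FOXK1 had 7 peaks, a number reached or passed by 2.71% of coding genes, and 3 of the 7 held a G4 motif. Over the whole list, 40.1% of coding promoter peaks and 9.83% of peaks outside coding promoters held a G4 motif. BCOR and FOXK1 were not compared with genes of like length.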
